A study of Mus musculus with 12 samples.

Results

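In total 6974 regions at the ends of protein-coding genes held an ATAC-seq peak in every one of 4 groups. The samples are labelled as mouse aortic endothelial cells. These regions are the gene ends whose chromatin was called open whatever the diet of the mother or of the offspring. They were found by merging the peaks of the 4 lists on chromosomes 1 to 19 and X into 48003 regions, with an overlap of at least 1 bp, and keeping those that held a peak of all 4 lists and lay no more than 1 kb from the start or the stop of a protein-coding gene in GRCm38. They were thus chosen by the peak calls themselves, so their presence in all groups is a description. The members made up 14.5% of all merged regions and 67.4% of the 10351 regions open in all 4 lists. The other 3377 regions open in all 4 lists lay away from gene ends.

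ATAC-seq uses a transposase that cuts and tags accessible DNA, and the labels name the cells as MAECs, mouse aortic endothelial cells, the lining of the vessel in which plaques form. In WDM-WDO and CDM-WDO the offspring were given WD for 4 weeks, and their mothers had WD or CD. In WDM-CDO and CDM-CDO the offspring were on CD, and their mothers had WD or CD. The diets are as read from the group names. Each group had 2 ATAC-seq samples but 1 peak list, so differences between groups were not tested. The series' title speaks of a high-fat diet of the mothers; the labels spell out neither WD nor CD and give no strain, age or sex. The peak names carry the tag 12w in both WDO lists and 08w in both CDO lists, which the labels do not explain, so offspring diet and whatever the tag stands for cannot be told apart.

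A promoter is the stretch around a gene's start where transcription is set up. Promoters of genes that most cells use are commonly rich in the dinucleotide CpG, lack a TATA box, and are accessible in most cell types through factors such as SP1, NF-Y, NRF1 and ETS proteins. Promoters of genes used in few cell types are more often poor in CpG, and much of what sets 1 cell type apart lies in enhancers away from gene ends. In the aortic endothelium, such genes include receptors for growth factors and sensors of blood flow.

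The promoters below show the kinds of gene end described in the rest of the text. They were read from RefSeq (GRCm38.p6) and cover the 250 bases before the annotated start, 5′ to 3′ on the gene's strand. Capitals mark matches on either strand to a GC box (GGGCGG, bound by SP and KLF factors), CCAAT (bound by NF-Y), an ETS motif (CCGGAAG), the NRF1 core (TGCGCA), a YY1 motif (ATGGCGG), the CRE core (TGACGT), an E-box (CACGTG), the AP-1 motif (TGANTCA), the TATA box (TATAAA), the GATA motif (AGATAAG) and the ZNF143 core (CTACAAT). Each motif was counted on its own, so overlapping matches count for each. The pair Dnpep, an aspartyl aminopeptidase, and Sf1, a splicing factor, had some of the strongest members in all 4 lists.
Dnpep, chr1:75317638-75317887, minus strand: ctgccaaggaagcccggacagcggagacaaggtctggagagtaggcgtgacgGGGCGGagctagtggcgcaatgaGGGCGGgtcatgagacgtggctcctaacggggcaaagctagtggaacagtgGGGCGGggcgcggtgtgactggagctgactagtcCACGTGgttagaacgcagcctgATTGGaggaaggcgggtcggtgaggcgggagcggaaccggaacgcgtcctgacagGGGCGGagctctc
Sf1, chr19:6363440-6363689, plus strand: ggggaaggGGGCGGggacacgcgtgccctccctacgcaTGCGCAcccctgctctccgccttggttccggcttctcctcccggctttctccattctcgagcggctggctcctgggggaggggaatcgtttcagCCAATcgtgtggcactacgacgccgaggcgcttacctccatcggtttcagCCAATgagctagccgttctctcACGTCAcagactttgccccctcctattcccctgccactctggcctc
Dnpep shows 4 GC boxes, 1 CCAAT and 1 E-box, and Sf1 shows 1 GC box, 2 CCAAT, 1 NRF1 core and 1 CRE core. The next promoters belong to members that differed between groups. Psmd1 encodes a subunit of the proteasome cap, H2ac22 and H3c11 encode core histones, Tie1 an endothelial receptor tyrosine kinase, Unc5b a netrin receptor of blood vessels, and Cxcl2 a chemokine that draws neutrophils.
Psmd1, chr1:86064369-86064618, plus strand: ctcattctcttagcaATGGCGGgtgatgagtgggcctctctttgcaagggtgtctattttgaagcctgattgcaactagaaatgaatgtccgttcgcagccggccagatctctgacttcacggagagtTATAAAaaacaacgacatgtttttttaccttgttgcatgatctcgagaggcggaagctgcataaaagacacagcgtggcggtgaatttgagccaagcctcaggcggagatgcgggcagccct
H2ac22, chr13:21787249-21787498, minus strand: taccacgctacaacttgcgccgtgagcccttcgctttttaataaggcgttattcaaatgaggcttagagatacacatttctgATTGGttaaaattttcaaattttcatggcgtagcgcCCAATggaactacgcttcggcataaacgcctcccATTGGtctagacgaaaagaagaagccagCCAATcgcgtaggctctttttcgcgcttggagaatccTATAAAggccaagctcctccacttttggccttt
H3c11, chr13:21783398-21783647, minus strand: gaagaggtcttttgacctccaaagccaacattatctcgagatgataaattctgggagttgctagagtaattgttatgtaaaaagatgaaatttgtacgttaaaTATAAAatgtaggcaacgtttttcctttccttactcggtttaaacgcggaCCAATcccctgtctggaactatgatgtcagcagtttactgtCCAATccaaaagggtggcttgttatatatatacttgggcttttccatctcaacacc
Tie1, chr4:118489850-118490099, minus strand: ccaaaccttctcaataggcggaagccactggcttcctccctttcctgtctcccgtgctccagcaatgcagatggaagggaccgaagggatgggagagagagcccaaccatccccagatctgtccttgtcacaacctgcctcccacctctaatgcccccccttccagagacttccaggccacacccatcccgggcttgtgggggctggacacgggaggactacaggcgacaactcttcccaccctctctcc
Unc5b, chr10:60831582-60831831, minus strand: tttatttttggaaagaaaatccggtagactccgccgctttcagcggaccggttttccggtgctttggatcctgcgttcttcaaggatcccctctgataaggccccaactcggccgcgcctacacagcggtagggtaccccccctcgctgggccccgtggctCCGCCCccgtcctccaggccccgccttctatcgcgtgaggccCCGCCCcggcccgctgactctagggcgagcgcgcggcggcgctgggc
Cxcl2, chr5:90903649-90903898, plus strand: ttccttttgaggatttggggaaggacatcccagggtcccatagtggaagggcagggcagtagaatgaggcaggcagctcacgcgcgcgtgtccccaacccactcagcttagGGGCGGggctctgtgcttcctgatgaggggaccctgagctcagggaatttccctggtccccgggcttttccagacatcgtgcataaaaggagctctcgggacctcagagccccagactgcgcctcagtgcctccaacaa
H2ac22 shows 4 CCAAT and 1 TATAAA, and H3c11 shows 2 CCAAT and 1 TATAAA. Psmd1 shows 1 YY1 motif and 1 TATAAA, Unc5b shows 2 GC boxes, and Cxcl2 shows 1 GC box. None of these motifs occurs in the 250 bases of Tie1, which says nothing about the factors themselves. The 2 histone promoters were chosen after their values were seen.

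The strength of a region is given here as the number of reads piled up at its highest summit, recovered as a whole number from the deposited fold enrichment and p-value. Members had a median of 79 reads in WDM-WDO, 53 in CDM-WDO, 96 in WDM-CDO and 68 in CDM-CDO. Regions open in all 4 lists away from gene ends had medians of 60, 40, 63 and 45 reads in the same order. The weakest call of a member came from the CDM-WDO list for 74.1% of members. The lists held 26275 peaks in WDM-WDO, 18962 in CDM-WDO, 28319 in WDM-CDO and 22178 in CDM-CDO, so CDM-WDO was the shortest. Their genome backgrounds were 6.08, 5.49, 5.59 and 4.84 reads in the same order.

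**Figure D1:**
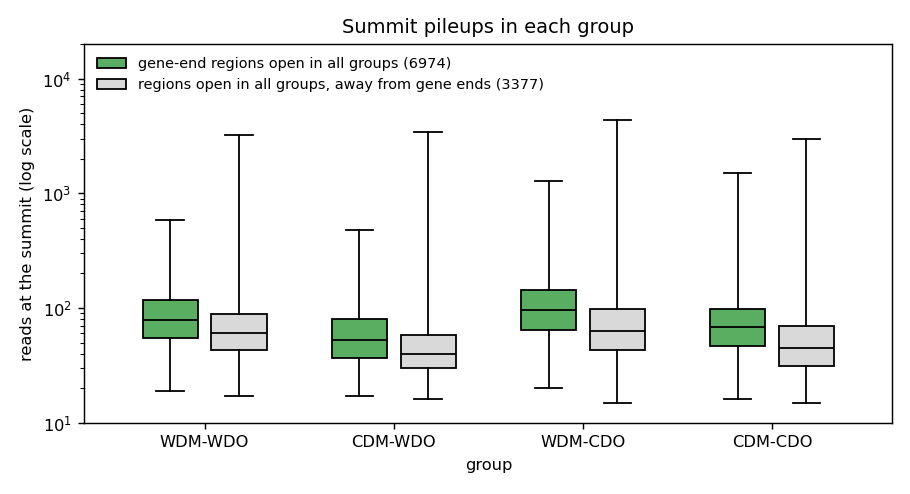
Reads at the highest summit (log scale) of 6974 gene-end regions open in all groups (green) and of 3377 regions open in all groups away from gene ends (grey), in each group. Boxes show the quartiles with the median, and whiskers run to the lowest and highest region; the medians of members are 79, 53, 96 and 68 reads.

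Members held 27.2% of all peaks in WDM-WDO, 37.1% in CDM-WDO, 24.8% in WDM-CDO and 31.8% in CDM-CDO. Among the strongest 10% of peaks of each list they held 82.6%, 84.4%, 81.5% and 82.0%. Among the weaker 50% they held 4.84%, 10.1%, 1.76% and 6.48%. The rule asked for a call in all 4 lists and so favoured strong peaks, and these shares are a description of what it chose.

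The strongest regions were much the same in every list. The region with the best mean rank lay 493 bp from the stop end of Lars2, a mitochondrial leucyl-tRNA synthetase (chr9:123461794-123462182). It had 580 reads in WDM-WDO, 480 in CDM-WDO, 760 in WDM-CDO and 530 in CDM-CDO. It was 389 bp wide, where the median member was 1058.5 bp, and regions prone to mapping artefacts were not removed. The start of Sp1, which encodes the GC-box factor SP1 itself (chr15:102405292-102406367), had 554 reads in WDM-WDO, 406 in CDM-WDO, 696 in WDM-CDO and 460 in CDM-CDO. Dnpep had 459, 361, 699 and 384 reads in that order. Others of the 10 strongest lay at Sf1, the transcriptional repressor gene Zbtb20, the kinase gene Gsk3b, the phosphatase gene Ppm1b, the RNA-binding protein gene Khsrp and Cdca2 beside Kctd9. These 10 differed between lists by at most 0.39 on the log2 scale, once scaled as described below.

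Gene-end regions called in fewer lists were weaker and narrower. The highest pileup over the lists had a median of 99 reads for members, 47 for the 1575 gene-end regions of 3 lists, 37 for the 1242 of 2 lists and 26 for the 2069 of 1 list. Their median widths were 1058.5, 801, 638 and 404 bp. Of the 1575 in 3 lists, 201 lacked a call in WDM-WDO, 1184 in CDM-WDO, 31 in WDM-CDO and 159 in CDM-CDO. Just inside the window, at 901 to 1000 bp from the nearest gene end, lay 47 members with a median mean pileup of 67 reads. Just outside, at 1001 to 1100 bp, lay 33 regions with 71.5 reads. Most members were nowhere near that limit, since 88.5% overlapped a gene end. The lowest −log10 q of any member was 1.43, and 32 members had a value under 2 in at least 1 list.

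Most members lay at the start of a gene. Strand was known for every nearby gene at 5603 members, through the RefSeq promoters. Of these, 5123 lay at a start only (91.4%), 373 at a start and a stop (6.66%) and 107 at a stop only (1.91%). The rule treated both ends alike, so this was not set by it. Summits lay close to the start. For the 5597 members within 1 kb of an annotated start, the median summit lay 25 bp upstream of it in WDM-WDO, 23 bp in CDM-WDO, 24 bp in WDM-CDO and 15 bp in CDM-CDO. Within 250 bp of the start lay 81.4%, 83.7%, 85.4% and 83.04% of summits.

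**Figure D2:**
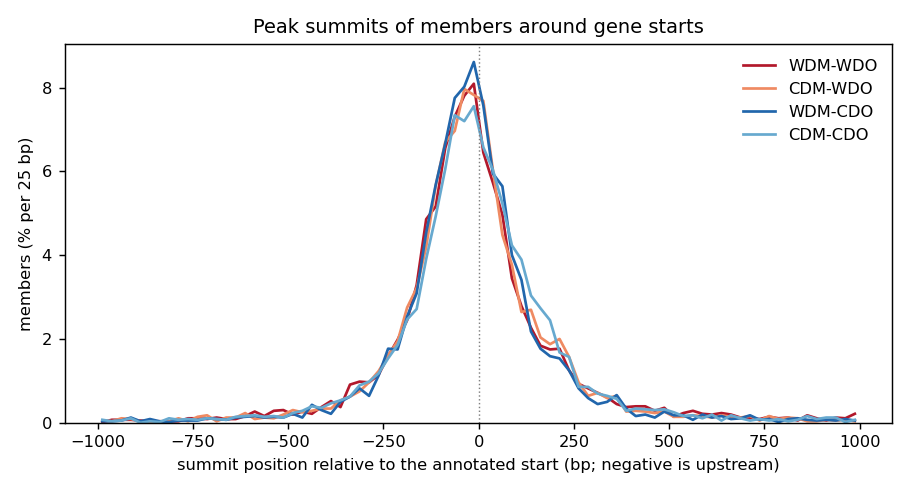
Share of 5597 members (% per 25 bp) by the position of their highest summit relative to the nearest annotated start (bp, negative upstream), 1 line for each group. The 4 lines peak just upstream of the start, with medians of −25, −23, −24 and −15 bp in WDM-WDO, CDM-WDO, WDM-CDO and CDM-CDO.

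The summits of the 4 lists fell close to each other. The distance between the outermost of the 4 summits had a median of 109 bp in members (95% interval of the median, 106 to 112) and of 162 bp in regions away from gene ends (154 to 169). The order was the same at matched strength. With a mean pileup of 80 to 120 reads, the medians were 84 bp in members and 101 bp away from gene ends, and above 120 reads 72 and 88 bp. In 18.7% of members all 4 summits lay within 50 bp. At the start of Dnpep they lay within 26 bp, and at the start of Gsk3b within 42 bp.

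Some members lay at the starts of neighbouring genes that point away from each other. Such divergent pairs made up 678 of the 5597 members near a start (12.1%). They were wider than members at the starts of 1 gene, with medians of 1189 and 1040 bp, and stronger, with median mean pileups of 93.1 and 73.8 reads. Hadha and Hadhb, which encode the subunits of the mitochondrial fatty acid oxidation complex, are a pair of this kind, with 103 reads in WDM-WDO, 46 in CDM-WDO, 68 in WDM-CDO and 49 in CDM-CDO. The region near most genes lay at Frs3, Tomm6, Prickle4, Gm20517 and Usp49 on chromosome 17, with 87 reads in WDM-WDO, 62 in CDM-WDO, 107 in WDM-CDO and 63 in CDM-CDO. Of all members, 5576 lay near 1 gene, 1357 near 2 and 41 near more.

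The bases of member promoters set them apart from other promoters, and the rule did not use them. The RefSeq table held promoters, 250 bases before the start to 50 after, for 17273 of 21627 protein-coding genes (79.9%) and for 6696 of the 8121 genes with a member. In the 7366 promoters within 1 kb of a member, the median of the observed over expected CpG count was 0.81, against 0.57 in all 21044 promoters and 0.23 in the 9175 with no region of any list within 1 kb. The median G and C content was 62.0%, 56.7% and 49.3%. A CpG ratio over 0.6 was held by 82.5% of member promoters, 48.1% of all promoters and 15.7% of those with no region. The other promoters lay in between, with medians of 0.75 near a region of 4 lists that is no member, 0.71 near one of 3 lists, 0.65 near one of 2 and 0.52 near one of 1.

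The short motifs followed in both directions. A GC box stood in 70.2% of member promoters, 46.7% of all promoters and 22.1% of those with no region. The ETS motif stood in 21.6%, 11.7% and 2.86%, the NRF1 core in 16.3%, 9.74% and 3.64%, the YY1 motif in 9.48%, 5.29% and 1.51%, and the CRE core in 14.3%, 8.58% and 4.10%. Each of these motifs holds a CpG, so the shares move with base composition. TATAAA went the other way, with 5.76%, 12.7% and 20.5%, as did AP-1 with 3.86%, 7.04% and 9.92%, and GATA with 1.44%, 2.63% and 3.95%. The CCAAT box (41.1%, 38.5% and 39.0%) and the ZNF143 core (2.16%, 2.18% and 2.52%) differed little. The E-box stood in 10.97%, 7.91% and 4.93%.

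**Figure D3:**
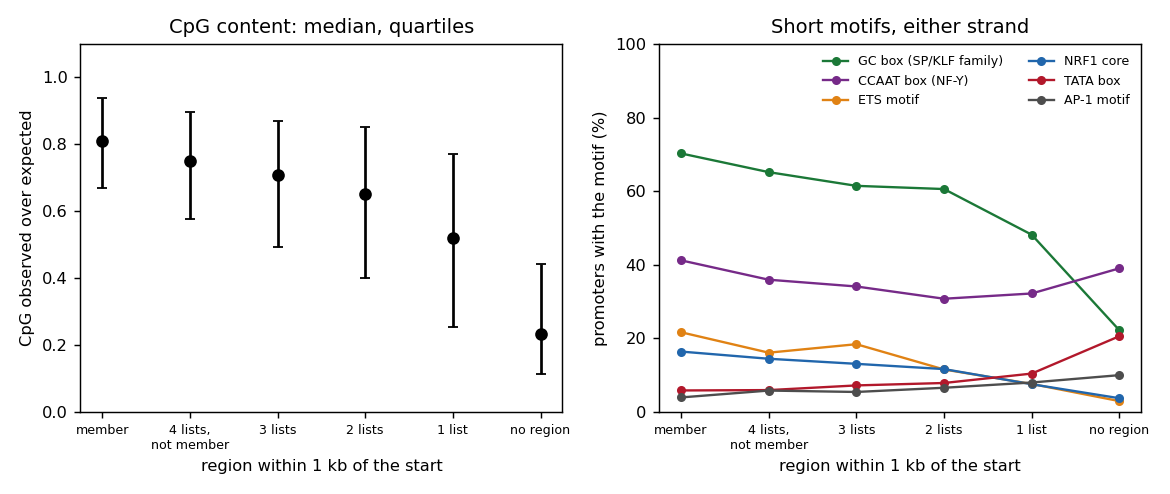
Left, observed over expected CpG (median with quartiles) of RefSeq promoters, by whether a member, another region of 4 lists, a region of 3, 2 or 1 lists, or no region lies within 1 kb of the start. Right, share of the same promoters (%) that hold each short motif; the GC box stands at 70.2% with a member and 22.1% without a region, and TATAAA at 5.76% and 20.5%. The x axis runs over the same classes of promoters.

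Within the members, the CCAAT box went with strength. In the weakest 25% of members near a start it stood in 32% of promoters, and in the strongest 25% in 53.8%. The GC box stood in 62.6% and 81.5% of the same promoters. The CpG ratio moved less, with medians of 0.77 and 0.84. The promoters of Dnpep and Sf1 printed above, both among the strongest, hold CCAAT boxes and GC boxes.

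In all, 8121 of 21627 protein-coding genes (37.6%) had a member at an end. Genes of the basic machinery had one far more often. Aminoacyl-tRNA synthetases, which load amino acids onto tRNAs, had one at 32 of 34 genes (94.1%, 95% Wilson interval 80.9 to 98.4%), cytosolic ribosomal proteins at 76 of 86 (88.4%) and splicing factors at 40 of 48 (83.3%). Proteasome subunits had one at 31 of 39, Mediator subunits at 23 of 30, RNA polymerase subunits at 21 of 28, nuclear pore proteins at 16 of 21, translation initiation factors at 39 of 55 and respiratory chain subunits at 67 of 96. Clustered histone genes, which are made in bulk in dividing cells, had one at 51 of 62. Zinc finger Zfp genes had one at 202 of 397 (50.9%). Solute carriers had one at 144 of 375 (38.4%), near the share of all genes.

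Gene families tied to other tissues had few or none. Olfactory receptors had a member at 0 of 1106 genes, keratins and keratin-associated proteins at 0 of 109, defensins at 0 of 70, vomeronasal receptors at 2 of 353 and cytochrome P450 genes at 9 of 93 (9.68%). On the X chromosome 21.2% of genes had a member (18.8 to 23.9%), where the autosomes ranged between 30.9% and 45.4%.

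**Figure D4:**
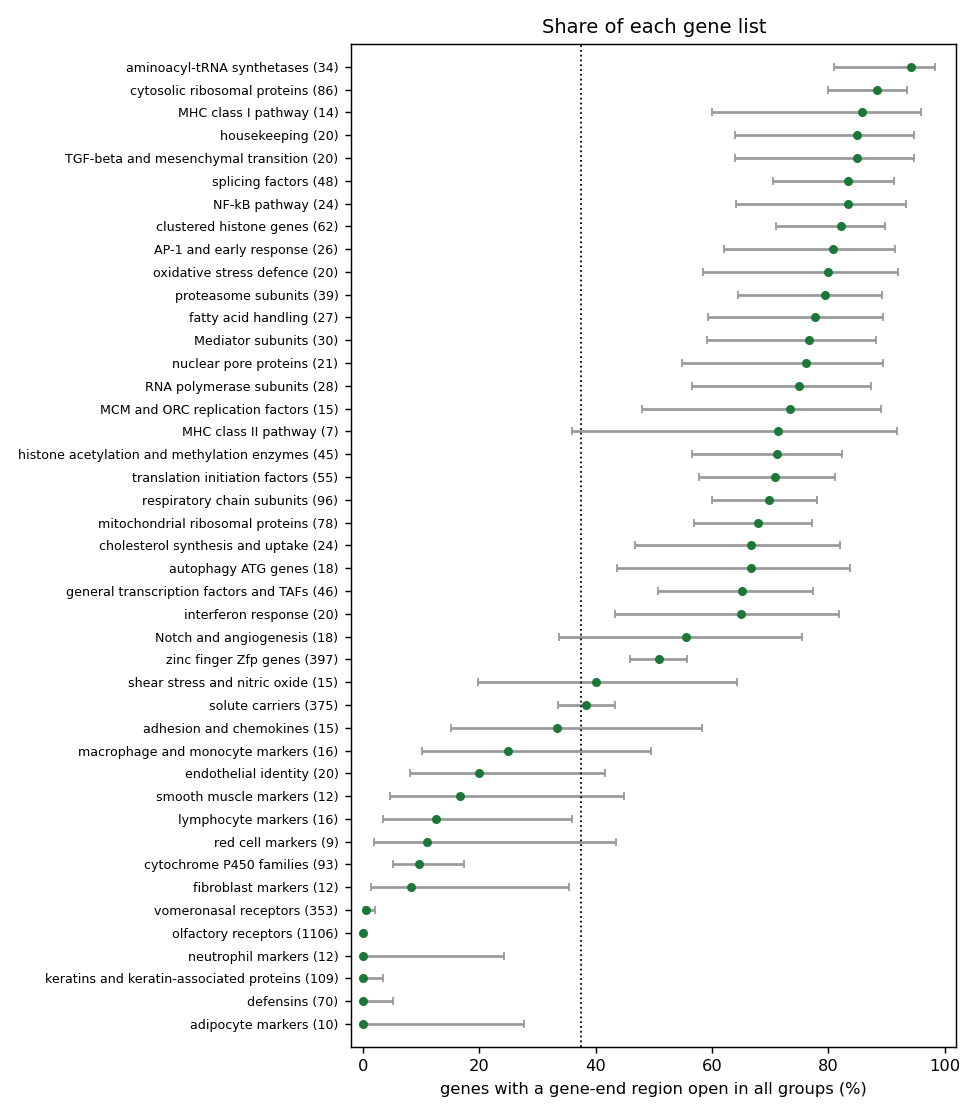
Share of the genes of each list (%) with a gene-end region open in all groups, with 95% Wilson intervals; the number of genes found in the annotation stands in brackets. The dotted line marks 37.6% of all protein-coding genes, and the lists run between 94.1% for aminoacyl-tRNA synthetases and 0% for 5 lists.

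Signalling genes were mostly among the members as well. The NF-kB pathway, which carries many inflammatory signals, had a member at 20 of 24 genes, which included Rela, Relb, Rel and the inhibitors Nfkbia and Tnfaip3. AP-1 and early response genes had one at 21 of 26, TGF-beta and mesenchymal transition genes at 17 of 20, the MHC class I pathway at 12 of 14, oxidative stress defence at 16 of 20 and interferon response genes at 13 of 20. Lipid genes followed, with fatty acid handling at 21 of 27 and cholesterol synthesis and uptake at 16 of 24, among them the synthesis enzyme genes Hmgcs1 and Sqle. Enzymes that write or remove histone acetylation and methylation had one at 32 of 45. Housekeeping genes had one at 17 of 20.

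Endothelial identity genes had a member at 4 of 20, with a 95% interval of 8.07 to 41.6% that holds the 37.6% of all genes. These were the receptor genes Eng, Tie1, Kdr and Flt1. Shear stress and nitric oxide genes had one at 6 of 15, which included the flow-induced factors Klf2 and Klf4, and adhesion and chemokine genes at 5 of 15. As a check of the cell type, a gene-end peak in single lists stood at 7 of the 20 endothelial genes in WDM-WDO, 7 in CDM-WDO, 10 in WDM-CDO and 8 in CDM-CDO. Summed reads at these ends, divided by the scale of each list, were 210.2, 337, 343 and 291. For 10 of the 20, among them Cdh5, Pecam1, Tek and Vwf, no list had a gene-end peak, and peaks elsewhere in these genes were not counted here.

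For markers of other cells, members stood at 2 of 12 smooth muscle markers, 1 of 12 fibroblast markers, 4 of 16 macrophage and monocyte markers, 2 of 16 lymphocyte markers, 1 of 9 red cell markers, 0 of 12 neutrophil markers and 0 of 10 adipocyte markers. The macrophage markers with a member were Ptprc, the common leukocyte antigen gene, Mertk, Cd68 and Cd14. In single lists, however, a gene-end peak stood at 13 of the 16 macrophage and monocyte markers in WDM-WDO, against 5 in CDM-WDO, 6 in WDM-CDO and 6 in CDM-CDO. The scaled sums were 623 in WDM-WDO, 299 in CDM-WDO, 226 in WDM-CDO and 256 in CDM-CDO. Mrc1, Ccr2 and Ly6c2 had no gene-end peak in any list. For lymphocyte markers the scaled sums were 300.2, 127, 539 and 616 in the same order, with 7, 3, 9 and 8 of 16 genes. For neutrophil markers 4 of 12 genes had a peak in WDM-WDO, 1 had one in CDM-WDO, and neither CDO list had any. Scaled sums in WDM-WDO, CDM-WDO, WDM-CDO and CDM-CDO were 101.5, 104, 152 and 164 for smooth muscle markers, 126, 63.7, 129 and 76.9 for fibroblast markers, and 49.9, 51.5, 74.2 and 85.6 for red cell markers. Adipocyte markers had no gene-end peak in any list. The endothelial sums were 210.2, 337, 343 and 291 in the same order. The macrophage sum was above the endothelial sum in WDM-WDO, and the lymphocyte sum was above it in WDM-WDO, WDM-CDO and CDM-CDO. In CDM-WDO the endothelial sum was above both. The marker lists differ in length, so these sums are no measure of cell shares. The name of the cells rests on the labels. In bulk samples, fewer cells of a type and less open chromatin per cell cannot be told apart.

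Differences between groups were read as ratios of summit pileups. Each ratio was divided by the median ratio over the 10351 regions open in all 4 lists, so a log2 ratio of 0 means the change of the typical shared region. The median log2 ratios taken out were 0.51 for WDM-CDO against CDM-CDO, 0.55 for WDM-WDO against CDM-WDO, −0.26 for CDM-WDO against CDM-CDO and −0.24 for WDM-WDO against WDM-CDO. Scaling by the genome background instead would set the typical shared region at 0.30, 0.40, −0.44 and −0.36, and all values below are relative to that region. Each comparison of offspring diet shares a list with each comparison of maternal diet.

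Members differed little, and less than shared regions elsewhere. The standard deviation of the scaled log2 ratio was 0.25 in members and 0.31 away from gene ends for WDM-CDO against CDM-CDO, and 0.35 and 0.40 for WDM-WDO against CDM-WDO. For CDM-WDO against CDM-CDO it was 0.37 and 0.59, and for WDM-WDO against WDM-CDO 0.38 and 0.56. At matched strength the gap was wider for offspring diet than for maternal diet in these values. Among regions with a mean pileup above 120 reads the standard deviations were 0.32 in members and 0.59 away from gene ends for CDM-WDO against CDM-CDO, and 0.28 and 0.51 for WDM-WDO against WDM-CDO, where counting error alone gives 0.16. For WDM-CDO against CDM-CDO they were 0.19 and 0.21, and for WDM-WDO against CDM-WDO 0.22 and 0.30. With 30 to 50 reads members did not differ less for WDM-WDO against CDM-WDO, at 0.420 in members and 0.414 away from gene ends. For WDM-CDO against CDM-CDO the values there were 0.30 and 0.35, where counting error alone gives 0.33. Rank correlations of the pileups of 2 lists ran between 0.85 and 0.95 over 6974 members and between 0.64 and 0.92 over 3377 regions away from gene ends, as a description, since the regions of a list share its depth.

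For the maternal diet in offspring on CD, 1 member was at least 2-fold higher in WDM-CDO than in CDM-CDO and 2 were at least 2-fold lower, where 0.029% of all shared regions were higher and 0.0676% lower. For the maternal diet in offspring given WD, 16 members were at least 2-fold higher in WDM-WDO than in CDM-WDO and 63 lower, where 0.271% and 1.22% of all shared regions were. For the offspring diet, 25 members were higher in CDM-WDO than in CDM-CDO and 50 lower, where 1.9% and 1.84% of all shared regions were. Lastly, 59 were higher in WDM-WDO than in WDM-CDO and 79 lower, where 2.89% and 1.55% of all shared regions were. In percent of members these counts were 0.0143 and 0.0287, 0.229 and 0.903, 0.358 and 0.717, and 0.846 and 1.133, each lower than in all shared regions. Scaled by genome background the counts higher and lower were 15 and 0, 243 and 4, 2 and 527, and 8 and 367, so the split between higher and lower rests on the scaling.

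At 1.5-fold, 64 members (0.918%) were higher and 112 (1.61%) lower in WDM-CDO against CDM-CDO, where 1.35% and 2.59% of all shared regions were. In WDM-WDO against CDM-WDO 264 (3.79%) were higher and 356 (5.10%) lower, where 4.25% and 6.04% of all shared regions were. In CDM-WDO against CDM-CDO 317 (4.55%) were higher and 465 (6.67%) lower, where 9.98% and 8.01% of all shared regions were. In WDM-WDO against WDM-CDO 365 (5.23%) were higher and 449 (6.44%) lower, where 10.7% and 7.05% of all shared regions were. This lower limit was added after the data were seen and is used below for gene lists. The share past 1.5-fold varied with promoter CpG. For CDM-WDO against CDM-CDO, 15.8% of members in the lowest of 3 equal groups by promoter CpG ratio passed 1.5-fold, 9.01% in the middle and 6.91% in the highest, with median pileups in CDM-WDO of 49, 58 and 58 reads. In WDM-WDO against WDM-CDO the shares were 12.8%, 9.38% and 10.9%, with no steady order.

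The 107 members at a stop only were weaker than those at a start, and more of them passed 1.5-fold in 3 of the 4 comparisons. Their median mean pileup was 53.5 reads, against 75.5 at starts. Past 1.5-fold lay 0.935% of stop-only members and 2.37% of start members for WDM-CDO against CDM-CDO. For WDM-WDO against CDM-WDO the shares were 16.8% and 8.55%, for CDM-WDO against CDM-CDO 30.8% and 10.7%, and for WDM-WDO against WDM-CDO 27.1% and 11.3%. Their lower strength goes with these shares, and its part in them was not tested. An example is Haao, an enzyme of tryptophan breakdown, whose stop end had 64 reads in WDM-WDO, 30 in CDM-WDO, 27 in WDM-CDO and 24 in CDM-CDO.

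The member with the largest ratio of WDM-CDO over CDM-CDO lay at Cxcl2. This region (chr5:90903191-90904793) had 171 reads in WDM-WDO, 82 in CDM-WDO, 108 in WDM-CDO and 35 in CDM-CDO. CDM-CDO was the lowest of the 4 lists. The scaled log2 ratio of WDM-CDO over CDM-CDO was 1.11 (exact 95% counting interval 0.55 to 1.71), and that of CDM-WDO over CDM-CDO was 1.49 (0.90 to 2.10). With fold enrichment as deposited, Cxcl2 had 0.49 and 0.56, both outside these intervals. Its neighbour Cxcl1, a chemokine of the same kind, had 72, 42, 73 and 28 reads in the same order of lists, with a log2 ratio of WDM-CDO over CDM-CDO of 0.87 (0.23 to 1.56).

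Slc15a3, a peptide and histidine transporter of lysosomes, followed the same pattern with 193 reads in WDM-WDO, 93 in CDM-WDO, 89 in WDM-CDO and 32 in CDM-CDO. It had the largest ratio of CDM-WDO over CDM-CDO among the members with 30 reads or more, at 1.80 (1.20 to 2.42). With fold enrichment this ratio was 0.99, outside the interval. The shared region of Ier3, an early response gene, and Flot1, a membrane raft protein gene, had 91, 49, 100 and 36 reads. Among the members with the lowest ratios of WDM-CDO over CDM-CDO, Gm4924 had 48, 36, 40 and 62 reads in WDM-WDO, CDM-WDO, WDM-CDO and CDM-CDO, and Reck, an inhibitor of matrix metalloproteinases, had 25, 30, 32 and 44. Hsd17b4, an enzyme of peroxisomal fatty acid oxidation, and Atf6, a sensor of stress in the endoplasmic reticulum, had log2 ratios of −1.02 and −0.94.

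In offspring given WD, the largest ratio of WDM-WDO over CDM-WDO lay at Psmd1. Its region (chr1:86064278-86065442) had 165 reads in WDM-WDO, 42 in CDM-WDO, 90 in WDM-CDO and 56 in CDM-CDO. The scaled log2 ratio of WDM-WDO over CDM-WDO was 1.43 (0.93 to 1.95). With fold enrichment this ratio was 0.79, outside the interval. WDM-WDO was the highest list and CDM-WDO the lowest, and the same order held for the ribosomal protein gene Rpl5, with 104, 31, 67 and 54 reads, and for Flcn, a regulator of nutrient signalling at lysosomes, with 220, 65, 152 and 123. Zfp763 and Ly96, the lipopolysaccharide co-receptor of TLR4, had log2 ratios of 1.20 and 1.19.

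Machinery lists differed among themselves in this comparison. Of 78 regions at cytosolic ribosomal protein genes, 11 were at least 1.5-fold higher in WDM-WDO than in CDM-WDO and 0 lower, with a median log2 ratio of 0.22. Of 69 regions at respiratory chain subunits 11 were higher and 0 lower, with a median of 0.24, and of 31 at proteasome subunits 5 and 0, with a median of 0.23. Medians were nearer 0 for mitochondrial ribosomal proteins (0.08, 4 higher and 1 lower), initiation factors (0.05, 2 and 1), aminoacyl-tRNA synthetases (0.03, 1 and 1), splicing factors (0.10, 1 and 2), general transcription factors (0.06, 0 and 1) and RNA polymerase subunits (−0.02, 1 and 0). The median over all shared regions is 0 by the scaling and that over members −0.0049. Over all members 3.79% were at least 1.5-fold higher and 5.10% lower, and over all shared regions 4.25% and 6.04%. Ndufa12, a subunit of respiratory complex I, had 83 reads in WDM-WDO, 25 in CDM-WDO, 85 in WDM-CDO and 54 in CDM-CDO. All of these ratios rest on the CDM-WDO list, the shortest of the 4. Scaling by genome background or by regions away from gene ends shifts all regions alike. It therefore cannot change the gap between a list and all shared regions. With fold enrichment the medians of the ribosomal, respiratory and proteasome lists were 0.13, 0.15 and 0.07.

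Lower in WDM-WDO than in CDM-WDO were Tent4b and Unc5b first of all. Unc5b (chr10:60831129-60832017) had 32 reads in WDM-WDO, 65 in CDM-WDO, 75 in WDM-CDO and 47 in CDM-CDO. Here WDM-WDO was the lowest list. Its log2 ratio of WDM-WDO over CDM-WDO was −1.57 (−2.23 to −0.94). Tent4b, a poly(A) polymerase, had 32, 66, 74 and 57 reads, with a log2 ratio of −1.59. Rnf111, a ubiquitin ligase of TGF-beta signalling, Fbxl7 and D5Ertd579e had log2 ratios of −1.44, −1.43 and −1.39.

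The 4 endothelial identity genes with members differed in part in the same comparison. Of their 5 regions, 3 were at least 1.5-fold lower in WDM-WDO than in CDM-WDO (median −0.60) and 3 at least 1.5-fold higher in CDM-WDO than in CDM-CDO (median 0.66). Over all members 5.10% were lower in the first comparison and 4.55% higher in the second. Tie1 had 35 reads in WDM-WDO, 49 in CDM-WDO, 40 in WDM-CDO and 29 in CDM-CDO. The log2 ratios were −1.03 (−1.70 to −0.38) for WDM-WDO over CDM-WDO and 1.01 (0.32 to 1.73) for CDM-WDO over CDM-CDO. The stop end of Kdr, the main VEGF receptor gene, had 31, 36, 44 and 25 reads. Its start had 30, 25, 37 and 25 reads and passed 1.5-fold in no comparison. All 5 regions were weak, with 22 to 52 reads, and both results use the CDM-WDO list. With fold enrichment as deposited the medians were −0.18 and 0.17, with 0 regions past 1.5-fold. In WDM-WDO against CDM-WDO the scaled marker sums were 623 and 299 for macrophages and monocytes and 300.2 and 127 for lymphocytes, and their part in the endothelial values was not tested.

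**Figure D5:**
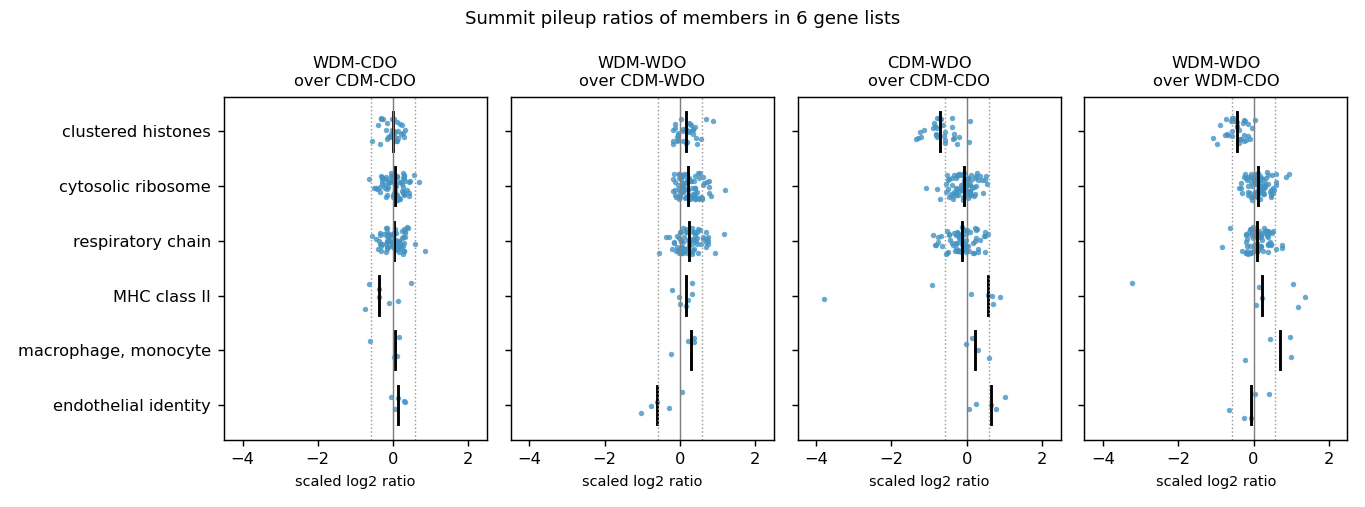
Scaled log2 ratio of summit pileups for every member in 6 gene lists (points; black bars are medians) in the 4 comparisons. Dotted lines mark 1.5-fold; clustered histones have medians of −0.71 in CDM-WDO over CDM-CDO and −0.43 in WDM-WDO over WDM-CDO, and the far point of MHC class II is the region of Cd74 and Tcof1.

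Clustered histone genes were mostly lower in the WDO lists. Their 51 genes with a member shared 31 regions on chromosomes 3 and 13. Of these, 19 were at least 1.5-fold lower in CDM-WDO than in CDM-CDO and 0 higher, with a median log2 ratio of −0.71. In WDM-WDO against WDM-CDO 8 were lower and 0 higher, with a median of −0.43. Over all members 6.67% were lower in the first comparison and 6.44% in the second. The region of H2ac15 and H2bc15 had 117 reads in WDM-WDO, 63 in CDM-WDO, 291 in WDM-CDO and 176 in CDM-CDO. Both WDO lists were under both CDO lists. H1f2, a linker histone gene, had 198, 83, 375 and 251 reads, and its log2 ratio of CDM-WDO over CDM-CDO was −1.34. H3c11, printed above, had 61, 37, 117 and 104 reads, and H2ac22 92, 34, 162 and 99. For maternal diet the medians were 0.00 in offspring on CD and 0.18 in offspring given WD, the second of which was −0.05 with fold enrichment.

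The promoters of these genes are of another kind than those of most members. Of the 44 histone promoters within 1 kb of a member, 39 held a CCAAT box (88.6%, against 41.1% of all member promoters) and 29 held TATAAA (65.9%, against 5.76%). Their median G and C content was 44.7%, against 62.0%. Scaling by genome background or by regions away from gene ends shifts all regions alike. It therefore cannot change how far the histone medians lie from that of all shared regions. With fold enrichment, which divides by the local background, the histone medians for offspring diet were −0.16 and −0.02, with 1 and 0 regions past 1.5-fold. For WDM-WDO over WDM-CDO 17 histone regions were then below 0 and 14 above. Histone genes have near-identical copies, and the placing of reads that match several copies is not stated, so single histone regions are uncertain.

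The widest member and the largest difference both lay at Cd74, the invariant chain of MHC class II. The region at the lower-coordinate end of Cd74 was 4260 bp wide (chr18:60803264-60807523) and had 192 reads in WDM-WDO, 105 in CDM-WDO, 218 in WDM-CDO and 237 in CDM-CDO. At its other end, shared with Tcof1, a nucleolar protein gene (chr18:60811497-60814233), the pileups were 116 in WDM-WDO, 91 in CDM-WDO, 1286 in WDM-CDO and 1512 in CDM-CDO. Both WDO lists were far below both CDO lists. The log2 ratios were −3.80 (−4.12 to −3.49) for CDM-WDO over CDM-CDO and −3.23 (−3.52 to −2.95) for WDM-WDO over WDM-CDO. The summit lay 830 bp from the region's lower edge in WDM-WDO, 2255 bp in CDM-WDO, and 871 bp in both CDO lists, so the CDM-WDO value comes from another place in the region.

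Some other MHC class II genes were higher in the WDO lists. H2-Eb1 had 134 reads in WDM-WDO, 82 in CDM-WDO, 70 in WDM-CDO and 53 in CDM-CDO. H2-Aa had 123, 86, 70 and 63. In both genes the WDO lists were above the CDO lists. The shared region of H2-DMb1 and H2-DMb2 had 66, 36, 30 and 27 reads. Of the 7 class II regions, 3 were higher and 2 lower past 1.5-fold for CDM-WDO over CDM-CDO, and 3 and 1 for WDM-WDO over WDM-CDO. Over all members the shares higher and lower were 4.55% and 6.67% in the first comparison and 5.23% and 6.44% in the second. The lymphocyte and macrophage marker sums given above differ between the same lists, and their part in these values was not tested.

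The largest ratio of WDM-WDO over WDM-CDO lay at Lgals3. This gene, which encodes galectin-3 (chr14:47373806-47375328), had 156 reads in WDM-WDO, 65 in CDM-WDO, 57 in WDM-CDO and 34 in CDM-CDO. Its log2 ratio of WDM-WDO over WDM-CDO was 1.69 (1.25 to 2.16). With fold enrichment this ratio was 0.83, outside the interval. Plek, pleckstrin of platelets and leukocytes, had 66, 32, 27 and 19 reads, and Gpnmb, a glycoprotein of lipid-loaded macrophages, had 48, 32, 21 and 22. WDM-WDO was the highest list for Lgals3 and Plek. Ifi207, an interferon-inducible gene with close relatives beside it, had 72, 36, 32 and 25 reads. Of the 4 macrophage and monocyte marker regions, 2 were at least 1.5-fold higher, those of Cd68 (123, 65, 74 and 51 reads) and Cd14 (74, 39, 44 and 47), and 0 lower, with a median of 0.71. Over all members 5.23% were higher and 6.44% lower. The scaled sum over the whole marker list was 623 in WDM-WDO and 226 in WDM-CDO, and its part in the ratios of Lgals3, Plek and Gpnmb was not tested.

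Ptafr, the receptor of platelet-activating factor, was also among the 5 members with the largest ratios of CDM-WDO over CDM-CDO, with 82 reads in WDM-WDO, 50 in CDM-WDO, 45 in WDM-CDO and 23 in CDM-CDO. Slc12a9 and Spsb4 had log2 ratios of 1.40 and 1.32. Beside Cd74, the members with the lowest ratios of CDM-WDO over CDM-CDO were Spo11, Carmil2, Ephb6 and Selplg. Selplg, the ligand of P-selectin on leukocytes, had 92, 41, 242 and 154 reads, and Carmil2, an actin regulator of T cells, had 59, 27, 162 and 107. Spo11, the enzyme that makes DNA breaks in meiosis, had 65, 29, 226 and 138 reads, and the receptor gene Ephb6 42, 23, 101 and 87. In all 4 of these genes both WDO lists were under both CDO lists. Scaled sums over lymphocyte markers were 300.2 in WDM-WDO against 539 in WDM-CDO, and 127 in CDM-WDO against 616 in CDM-CDO, and their part in these values was not tested. Tmem245, Atp11b, a lipid flippase gene, and Rdx, which links actin to the membrane, were the others lowest in WDM-WDO against WDM-CDO, at −1.59, −1.50 and −1.48.

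Some strong members hardly moved. Among the strongest 10% by mean pileup, those with the smallest range of scaled log2 pileups included M6pr, the mannose 6-phosphate receptor gene (range 0.06), Pgap2 beside the nuclear pore gene Nup98 (0.06), Aco1, an iron-responsive aconitase gene (0.07), and Ppp2r5a, a phosphatase subunit gene (0.07). M6pr had 228 reads in WDM-WDO, 148 in CDM-WDO, 274 in WDM-CDO and 187 in CDM-CDO. The early response genes Jun, with 298, 232, 368 and 217 reads, and Junb, with 302, 184, 294 and 181 over a region of 4153 bp, passed 1.5-fold in no comparison, nor did Klf2 with 259, 230, 392 and 247. Of 24 regions on the early response list 2 passed in at least 1 comparison, those of Atf3 and Ier3. Of 7 shear stress and nitric oxide regions 4 did, those of Thbd, Cav1, Cav2 and Cavin1, with log2 ratios between −0.66 and 0.94. Of 23 NF-kB pathway regions 1 passed 1.5-fold in any comparison, a region of Nfkbiz for WDM-WDO against WDM-CDO. Of 17 TGF-beta regions 0 did. Of all members, 97.5% stayed within 1.5-fold in WDM-CDO against CDM-CDO and 91.1% in WDM-WDO against CDM-WDO. The shares were 88.8% in CDM-WDO against CDM-CDO and 88.3% in WDM-WDO against WDM-CDO. How many members passed in at least 1 comparison was not counted, so these list counts are a description.

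For the diet of the mothers, 11 members passed 1.5-fold in the same direction under both offspring diets (0.158% of members, against 0.367% of all shared regions) and 9 in opposite directions (0.129%, against 0.174%). The region of Recql5 and Sap30bp was higher with WDM in both, with 83 reads in WDM-WDO against 35 in CDM-WDO, and 92 in WDM-CDO against 42 in CDM-CDO. Lower in both were 10 members, among them those at Tanc1, Reck, Luzp1, Crtap, Tmed8, Paqr4, Ctnna1, Tshz1 and Htatsf1. All 10 were weak, with 25 to 71 reads. Scaling by genome background would raise the ratios of WDM-CDO over CDM-CDO by 0.30 and those of WDM-WDO over CDM-WDO by 0.40. None of the 10 would then be past 1.5-fold lower in both, so the split between higher and lower rests on the scaling. These 2 comparisons share no list. Reck had 25 reads in WDM-WDO against 30 in CDM-WDO, and 32 in WDM-CDO against 44 in CDM-CDO.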

How the data were processed

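ATAC-seq of 8 samples in 4 groups was used here as 1 narrowPeak list per group, on GRCm38. The 4 H3K27ac samples were not analysed here. Pooling of the 2 samples of a group before peak calling, and any shift of read ends, are not given in the sources used here. Per the submitters' processing notes, MACS2 2.2.9.1 and Bowtie2 2.4.5 were used, with Trim Galore 0.6.10 among other tools. The fold enrichment of each peak, a ratio over local background, was deposited by the authors, as were the −log10 p and −log10 q values and the peak score.

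Whole reads at each summit were recovered from fold enrichment and −log10 p, with 1 read added to pileup and background. This held for 100% of peaks within a relative tolerance of 0.0001. Recovery and ratios were tested on simulated data. The simulated ratios had more reads than these data and changes larger than the 2-fold limit. They therefore do not test the counts past a limit at the depth of these data. Peaks were merged in Python 3.11.15 (pandas 2.3.3). Depth is known only as these pileups, so intervals cover counting error only. Protein-coding genes came from RefSeq, GRCm38.p6. The members, gene lists and tests were chosen with earlier results of these data known. Named genes were the 10 strongest members by mean rank of −log10 q, the 5 largest ratios per comparison and direction with 30 reads in at least 1 of the lists compared, the 5 steadiest, widest and near most genes, and genes of the symbol lists; individual histone, ribosomal and respiratory genes and the 1.5-fold limit were picked after their values were seen. Some members that the naming rule picks are not reported here. Alternatives covered thresholds, windows, overlap, scaling and lists left out.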

Additional observations from a re-analysis of the deposited data

Results flagged for a closer look

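At 9 members the ratio between maternal diets went past 1.5-fold in opposite directions under the offspring diets. This was 0.129% of members, against 0.174% of all shared regions. The difference between the offspring diets was not tested since each group had 1 list. In 4 of them the scaled log2 ratio was above 0 for WDM-CDO over CDM-CDO and below 0 for WDM-WDO over CDM-WDO. These were Svbp, a tubulin-processing partner (0.71 and −0.60), Hspb1, a small heat shock protein (0.65 and −1.18), the peptidase gene Prep (0.60 and −0.68) and Cpne8 (0.70 and −0.74). In the other 5 the order was turned, at the ribosomal protein gene Rpl37a (−0.64 and 0.82), Cog6 of the Golgi (−0.66 and 0.59), the leukocyte tetraspanin gene Cd53 (−0.67 and 0.88), Letm1 of the mitochondrial inner membrane (−0.61 and 0.62) and Gm35315 (−0.76 and 0.80). Hspb1 had 36 reads in WDM-WDO against 56 in CDM-WDO, and 87 in WDM-CDO against 39 in CDM-CDO. Cd53 had 70 in WDM-WDO against 26 in CDM-WDO, and 42 in WDM-CDO against 47 in CDM-CDO. Scaling by genome background would raise the ratios of WDM-CDO over CDM-CDO by 0.30 and those of WDM-WDO over CDM-WDO by 0.40. Of the members named here, Hspb1 alone would then pass 1.5-fold in both.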

How the results depend on the processing

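The number of members, 6974, ranged between 5686 with starts only and 8151 without the CDM-WDO list, and kept within 1.5 times of the main count in all 11 alternatives. The share of genes with a member was 36.0% with a window of 500 bp and 39.6% with 2 kb. Summit spread and CpG ratio kept within their intervals. The counts at least 2-fold higher and lower are given next in the order WDM-CDO over CDM-CDO, WDM-WDO over CDM-WDO, CDM-WDO over CDM-CDO and WDM-WDO over WDM-CDO. Genome background gave 15 and 0, 243 and 4, 2 and 527, and 8 and 367. Scaling by regions away from gene ends gave 1 and 1, 15 and 63, 13 and 113, and 28 and 142. Fold enrichment gave 0 and 0, 2 and 13, 3 and 5, and 2 and 19. Summed summits gave 6 and 10 for the first pair and 32 higher for the second. At 1.5-fold, a limit chosen after seeing the data, the counts were 64 and 112, 264 and 356, 317 and 465, and 365 and 449. The cause was not tested. Of 160 values of named members under other scalings 17 left their counting interval, all with fold enrichment except those of Cd74 with genome background. None changed sign. Scaling by genome background or by regions away from gene ends shifts all ratios alike, by less than any of the named ratios. There the sign could not change, so its stability under these scalings says nothing about the members. Of 172 counts of genes with a member in the gene lists 2 left their interval. Of 40 list counts past 1.5-fold 22 moved by over 1.5 times. No paired analysis was possible because each group had 1 list.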
